A study of Mus musculus with 4 samples.

Results

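The genes described here are 36 genes that the annotation of the array's probe sets labelled with the molecular function term receptor activity, among 1133 genes named in the authors' list of probe sets that differed between the distal and the proximal nail matrix of the mouse. The list kept probe sets whose region means differed past a fold limit set by the authors, so every member was chosen for a difference on these same arrays, and the differences below are descriptions with no test. The term stood on 41 genes with 1 symbol. Of these, 5 were left out by name (Bmpr1a, Itga8, Itgb4, Ryk and Tnfrsf19) and 0 for a ubiquitin term. A gene with several probe sets was represented by the one with the highest mean over the arrays. The authors' folds of the members ran from 2.00 to 6.69 in the authors' deposited table, where Xpr1 (2.01) and Lcor (2.02) lay just inside the limit. Probe sets outside it carry no gene name here.

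The arrays were 2 of microdissected distal and 2 of microdissected proximal nail matrix, all from intact mice aged 8 weeks, with total RNA labelled from the 3' end and hybridised to Affymetrix expression arrays. Nail matrix is the growing epithelium under the nail fold, and its dividing cells form the nail plate. The labels give no strain or sex, and they do not say whether the replicates came from separate animals or pools, so the spread between arrays may be technical.

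Receptors are proteins that bind a signal or a cargo and pass it on. Those in the cell membrane bind growth factors, cytokines, matrix or lipoproteins outside the cell, while nuclear receptors bind hormones and act directly on genes. In skin and its appendages, receptors of the transforming growth factor beta family, integrins and nuclear receptors take part in the control of growth, adhesion and differentiation of keratinocytes.

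The label fitted the set only in part. The term receptor activity rested on electronic annotation alone for 33 of the 36 genes, and for 3 (Neo1, P2rx7 and Xpr1) also or only on experiment. By their known roles 18 were receptors at the cell surface and 3 were nuclear receptors, and 15 were partners of receptors, enzymes, a channel or other proteins, such as the corepressor Ncor1 and the phosphatase Ptpn12. The annotation placed 22 of the 36 as integral to membrane and 10 in the nucleus, with 2 in both.

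Each array gave intensities for 45037 probe sets, with median intensities from 41.6 to 55.7. The ratio of 3' to 5' signal of the Gapdh controls ran from 6.73 to 9.40 over the 4 arrays. That of the actin controls ran from 0.524 to 0.636 and that of the Tfrc controls from 0.321 to 0.701. The part of RNA quality in the values below was not tested. As the background of an array the brightest of its 27 probe sets for Bacillus subtilis controls was used, which lay between 45.4 and 96.8. A gene was taken as not above background in a region when it was at or below that control on both arrays. Of the labelled tissue's own markers, Krt42 gave signals of 8877 and 12310 in distal against 731 and 1415 in proximal matrix, and Krt15 had 612 and 907 against 2306 and 2372. These markers did not all go one way, since of the listed nail matrix markers 2 of 4 were higher in the proximal matrix, and of the listed keratinocyte markers 3 of 4. The arrays of the distal matrix did not group together. Over all probe sets distal replicate 1 correlated with distal replicate 2 at 0.669, below its correlation with proximal replicate 1 (0.684) and proximal replicate 2 (0.721), and the proximal arrays correlated with each other at 0.721. The intensity of the fibroblast gene Dcn was higher on the proximal arrays, at 984 and 1049 against 243 and 310. It was the single named gene of 6 fibroblast markers, and its part in the values below was not tested. In whole tissue, fewer cells of a type and less RNA per cell cannot be told apart. The number of arrays limits the precision of every value.

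Most of the receptor activity genes had more signal in the proximal matrix. The mean log2 intensity was higher in proximal matrix for 31 of the 36 and higher in distal matrix for 5 (Axl, Nr2f6, P2rx7, Sema5a and Spsb1). The median log2 difference, distal minus proximal, was -1.42 over the 36 genes, and -1.28 with the genes that were not above background in a region placed at their bounds and Sema5a, for which no bound could be given, at 0. Over the other 1097 listed genes the median was -0.92 and 67.7% were higher in proximal matrix, and over all 45037 probe sets the median was -0.06 and 52.0% were higher there. The median mean log2 intensity of the members was 7.70, against 7.38 over the other listed genes and 4.97 over all probe sets. Of the 36 genes, 20 were above background on all 4 arrays and 5 were not above it in a region.

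**Figure D1:**
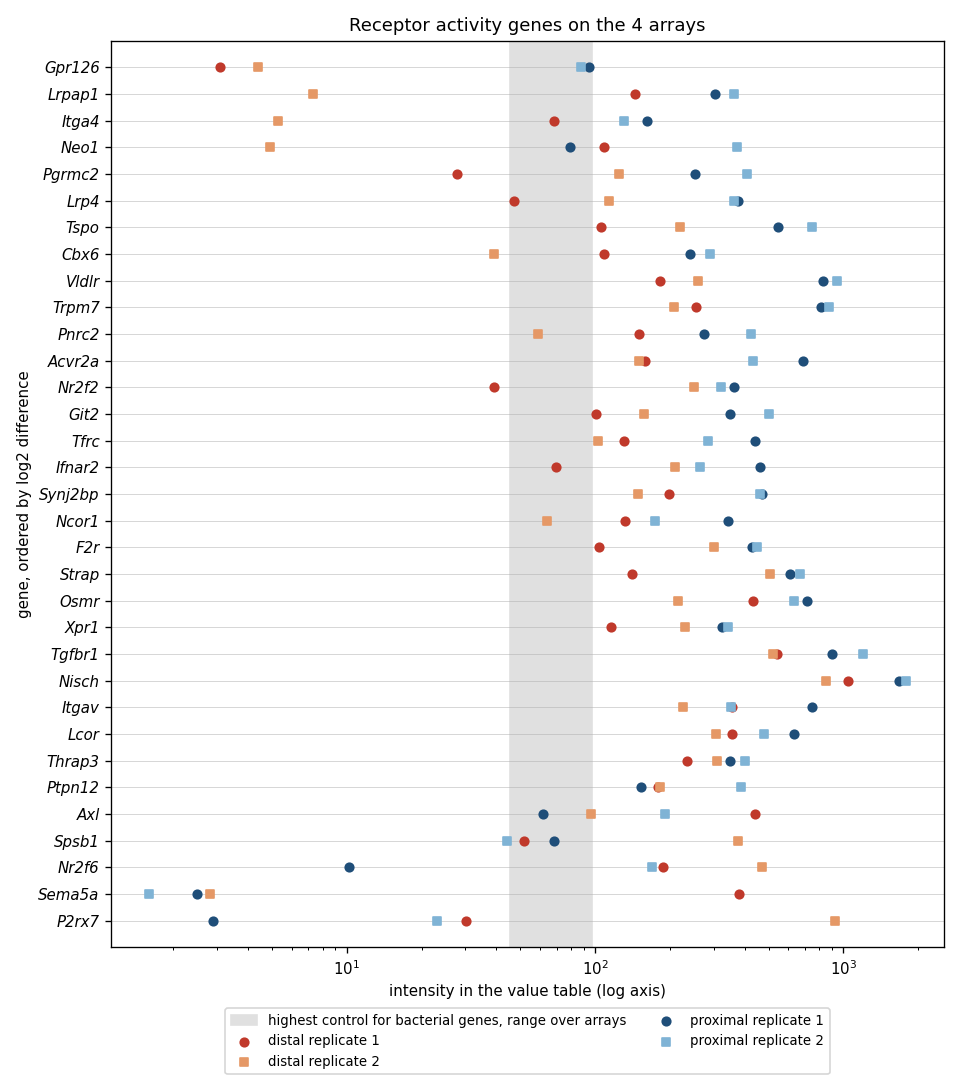
Intensity of 33 of the 36 receptor activity genes on the 2 distal and 2 proximal arrays (log axis), ordered by log2 difference, with the grey band spanning the highest bacterial control of the 4 arrays (45.4 to 96.8). Both proximal arrays lie above both distal arrays for 25 of the genes drawn, and both distal arrays above both proximal arrays for 3. Among the latter, the nearest arrays of P2rx7 and of Sema5a lie below the grey band.

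The 4 arrays separated by region for 31 of the 36 genes, 28 of them with both proximal arrays above both distal arrays and 3 the other way (Nr2f6, P2rx7 and Sema5a). For P2rx7 the nearest arrays of the regions had 30.2 and 23.1 and for Sema5a 2.8 and 2.5. All of these lay below their controls, so their order says little. Over all probe sets, 34.7% did not overlap between the regions, and 18.3% had both proximal arrays above both distal ones. Since the list was chosen on these arrays, nothing is read from the members' counts. The difference of the means was larger than the wider gap between arrays of a region for 20 of the 36 genes, against 21.8% of all probe sets. Limma called 0 of the 36 at a Benjamini-Hochberg adjusted p under 0.05, where it called 0.0666% of all probe sets, and 25 of them had an unadjusted p under 0.05, against 5.09% of all probe sets.

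Lipoprotein receptors and their relatives carry lipoproteins and other ligands into the cell. Vldlr, Lrp4 and the chaperone of the family, Lrpap1, were higher in intensity in the proximal matrix. Vldlr, the receptor for very low density lipoprotein and for reelin, had 181.7 and 260.4 in distal samples and 826.4 and 939.7 in proximal samples. On this probe set the arrays of each region lay close together and the regions were 4.05-fold apart. The log2 difference was -2.02 ± 0.46 (SE, n = 2 arrays per region). Each SE here is limma's moderated value, drawn towards the spread of probe sets of like intensity. It can be smaller or larger than the spread of a gene's own arrays would give. Lrp4, a receptor of this family that also binds agrin and modulates Wnt and BMP signals, read 47.0 and 114.0 in distal and 376.2 and 364.1 in proximal matrix. Its proximal arrays were nearly equal, and distal replicate 1 lay below the background control of its array. The log2 difference was -2.34 ± 0.70 (SE, n = 2).

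Lrpap1, the chaperone that keeps these receptors from binding ligands while they fold, gave signals of 145.2 and 7.3 in distal against 303.8 and 363.2 in proximal matrix. Its log2 difference of -3.35 ± 1.02 (SE, n = 2) rested on distal replicate 2, which lay below its control of 81.0, and was -1.19 without it.

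Of the 13 genes that were above background on all 4 arrays and whose regions lay further apart than the arrays within a region, Vldlr, Trpm7 and Acvr2a had, after Tspo, the largest differences. Tspo has no entry among the promoter sequences used here. The 250 bases before the start of transcription of these 3 genes are printed 5' to 3' on the gene's strand, from RefSeq on build GRCm38.p6. They are shown to let the starts of clearly separated members be compared. Capitals mark GGGCGG (the core bound by Sp1) or CCAAT (the CCAAT box) on either strand. Vldlr has 2 starts, the upstream one at chr19:27216234-27216483 (plus strand), with 41.6% G and C and 5 CpG, and the downstream one at chr19:27216770-27217019 (plus strand), with 66.4% and 18 CpG. Acvr2a lies at chr2:48813859-48814108 (plus strand), with 82.0% G and C and 49 CpG, and Trpm7 at chr2:126876262-126876511 (minus strand), with 60.4% and 26 CpG.
Vldlr, upstream start: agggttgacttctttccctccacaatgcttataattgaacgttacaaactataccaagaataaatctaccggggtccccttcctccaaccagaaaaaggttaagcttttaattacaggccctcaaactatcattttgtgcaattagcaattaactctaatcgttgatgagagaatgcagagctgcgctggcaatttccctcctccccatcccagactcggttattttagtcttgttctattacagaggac
Vldlr, downstream start: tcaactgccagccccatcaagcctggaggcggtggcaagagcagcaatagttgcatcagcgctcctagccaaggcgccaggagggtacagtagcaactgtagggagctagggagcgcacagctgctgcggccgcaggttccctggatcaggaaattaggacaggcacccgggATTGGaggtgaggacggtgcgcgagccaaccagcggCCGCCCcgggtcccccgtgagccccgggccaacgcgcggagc
Acvr2a: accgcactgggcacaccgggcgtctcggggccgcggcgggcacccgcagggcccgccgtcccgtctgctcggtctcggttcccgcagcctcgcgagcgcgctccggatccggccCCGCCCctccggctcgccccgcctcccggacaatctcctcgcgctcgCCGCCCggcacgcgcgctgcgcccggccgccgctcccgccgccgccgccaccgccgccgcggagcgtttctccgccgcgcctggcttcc
Trpm7: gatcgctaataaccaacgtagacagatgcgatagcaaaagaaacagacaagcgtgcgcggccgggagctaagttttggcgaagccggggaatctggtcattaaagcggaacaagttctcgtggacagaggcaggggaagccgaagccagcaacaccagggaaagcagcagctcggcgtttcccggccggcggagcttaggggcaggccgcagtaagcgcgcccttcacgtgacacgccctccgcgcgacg
The downstream Vldlr window held 1 GGGCGG and 1 CCAAT and the Acvr2a window 2 GGGCGG, and the letters of neither occurred in the upstream Vldlr and the Trpm7 windows.

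RefSeq promoter windows were found for 30 of the 36 genes, 36 windows in all. Shares are per window and not per gene, as 6 genes had 2 windows. The 2 windows of Git2 were nearly the same sequence, and those of Tfrc overlapped in part. Their median G and C content was 64.4%, against 61.2% over 1038 windows of other listed genes and 52.4% over all 32851 windows. GGGCGG occurred in 22 of the 36 member windows (61.1%), in 60.6% of those of other listed genes and in 32.7% of all windows. TATAAA, the TATA box, occurred in 0 of 36, 7.32% and 12.4%, and CCAAT in 25.0%, 33.7% and 33.8%. The AP-1 letters TGANTCA were in 3 member windows (8.33%), in 4.24% of those of other listed genes and in 6.75% of all. The TCF/LEF letters CTTTGAT were in 1 member window (2.78%), that of Nr2f2, against 2.22% and 3.21%. Both strands were searched for each motif. In base composition and Sp1 letters the members were close to the other listed genes.

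In the transforming growth factor beta family, Tgfbr1, the type I receptor kinase, and Acvr2a, a type II receptor for activins, had proximal intensities above the distal ones on every array. Acvr2a had 158.4 and 149.6 in distal samples and 689.1 and 431.4 in proximal samples. The distal arrays were nearly equal, and the log2 difference was -1.82 ± 0.54 (SE, n = 2), 3.54-fold. Tgfbr1 read 538.1 and 518.2 in distal and 900.0 and 1201.1 in proximal matrix, a log2 difference of -0.98 ± 0.39 (SE, n = 2). Strap, a cytoplasmic protein that binds these receptors and dampens their signal, gave signals of 140.6 and 504.5 in distal against 606.5 and 667.2 in proximal matrix. Its distal arrays were 3.59-fold apart, and its difference of -1.26 was -0.33 without distal replicate 1.

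Of the cytokine receptors, Osmr, which binds oncostatin M, had 433.2 and 214.9 in distal samples and 713.1 and 632.6 in proximal samples. Ifnar2, a chain of the type I interferon receptor, read 69.3 and 210.6 in distal and 460.9 and 264.3 in proximal matrix. The regions did not overlap for either gene, but the distal arrays of each were over 2-fold apart. The log2 differences were -1.14 ± 0.47 for Osmr and -1.53 ± 0.66 for Ifnar2 (SE, n = 2 arrays per region).

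Among the G protein-coupled receptors, F2r, the thrombin receptor, gave signals of 104.0 and 301.9 in distal against 429.7 and 450.2 in proximal matrix, with a log2 difference of -1.31 ± 0.58 (SE, n = 2). Gpr126 (now Adgrg6), an adhesion receptor needed in Schwann cells for myelination, had distal intensities of 3.1 and 4.4, not above background, and proximal intensities of 94.4 and 87.7. Proximal replicate 1 also lay below its control of 96.8, so the bound of 1.33-fold is nominal and not a strict lower limit. Git2, which binds G protein-coupled receptor kinases and acts on Arf proteins, read 100.5 and 157.6 in distal and 348.6 and 501.7 in proximal matrix, a log2 difference of -1.73 ± 0.60 (SE, n = 2).

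The receptors for matrix and their partners differed in how far the arrays separated. Itga4, an integrin chain that binds fibronectin and the adhesion molecule VCAM-1, gave signals of 68.4 and 5.3 in distal against 162.1 and 130.9 in proximal matrix. Its log2 difference of -2.94 ± 1.30 (SE, n = 2) was -1.09 without distal replicate 2. Itgav, the chain of the vitronectin receptor, had 357.0 and 226.0 in distal samples and 750.3 and 353.4 in proximal samples, and the regions overlapped. Nisch, which binds integrin alpha 5 and the imidazoline ligands, read 1045.9 and 849.2 in distal and 1669.7 and 1785.8 in proximal matrix. The arrays of each region lay within 1.23-fold of each other, and the log2 difference was -0.87 ± 0.33 (SE, n = 2). Neo1, a receptor for netrins and repulsive guidance molecules, gave signals of 108.2 and 4.9 in distal against 78.9 and 373.3 in proximal matrix, which overlapped.

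Of the genes of uptake and transport, Trpm7, Tspo, Tfrc and Xpr1 were higher in mean intensity in the proximal matrix. Trpm7, a channel for magnesium and calcium that carries its own kinase, had 254.8 and 208.1 in distal samples and 811.8 and 871.7 in proximal samples, 3.65-fold apart, with a log2 difference of -1.87 ± 0.46 (SE, n = 2). Tspo, a mitochondrial protein that binds cholesterol, read 105.9 and 219.6 in distal and 545.0 and 744.8 in proximal matrix, a log2 difference of -2.06 ± 0.54 (SE, n = 2). Tfrc, which takes up iron bound to transferrin and is abundant in dividing cells, gave signals of 130.9 and 102.9 in distal against 440.3 and 285.0 in proximal matrix. None of these 3 genes overlapped between the regions, as was so for 34.7% of all probe sets. Xpr1, a phosphate exporter first known as a retrovirus receptor, had 116.2 and 230.8 in distal samples and 325.6 and 344.4 in proximal samples.

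Nuclear receptors went both ways. Nr2f2 (COUP-TFII), an orphan receptor of mesenchyme and vessels, read 39.1 and 250.6 in distal and 363.9 and 320.6 in proximal matrix. Its proximal arrays were close together and its distal arrays far apart, and the log2 difference of -1.79 was -0.45 without distal replicate 1. Nr2f6, an orphan receptor related to Nr2f2, had the opposite direction, with 188.1 and 470.1 in distal and 10.2 and 169.0 in proximal matrix. Its log2 difference of 2.84 ± 1.00 (SE, n = 2) was 0.82 without proximal replicate 1.

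The 4 coregulators of nuclear receptors were all higher in mean intensity in the proximal matrix. None overlapped between the regions, as was so for 34.7% of all probe sets. Ncor1, a corepressor that recruits histone deacetylases, had 131.5 and 63.8 in distal samples and 342.3 and 174.0 in proximal samples. Pnrc2, a coactivator also active in mRNA decay, read 150.7 and 59.1 in distal and 274.7 and 422.9 in proximal matrix. Lcor, a ligand-dependent corepressor, had 355.6 and 305.6 against 630.5 and 479.5, and Thrap3, a splicing and Mediator-associated protein, had 235.5 and 309.4 against 350.7 and 401.9. The log2 differences were -1.85 ± 0.68 for Pnrc2, -1.41 ± 0.74 for Ncor1, -0.74 ± 0.47 for Lcor and -0.48 ± 0.52 for Thrap3 (SE, n = 2 arrays per region). In limma 1 of the 4 had an unadjusted p under 0.05, against 5.09% of all probe sets.

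The remaining proximal members were Pgrmc2, a haem-binding membrane protein, with signals of 27.7 and 124.8 in distal and 252.9 and 410.6 in proximal matrix, and Cbx6, a Polycomb group gene, with 108.6 and 39.0 against 241.3 and 290.0. Both separated by region, with log2 differences of -2.45 ± 0.80 and -2.02 ± 0.78 (SE, n = 2). They moved to -1.37 for Pgrmc2 without distal replicate 1 and to -1.28 for Cbx6 without distal replicate 2. Synj2bp, an outer mitochondrial membrane protein that binds activin receptors, had 198.8 and 148.5 against 469.1 and 460.4, a log2 difference of -1.44 ± 0.54 (SE, n = 2). Ptpn12, a cytoplasmic tyrosine phosphatase, had 179.9 and 183.1 against 152.6 and 387.6, and its regions overlapped.

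On the distal side no member had a difference larger than the wider gap between arrays of a region on the probe set that represents it. A second probe set of Spsb1, described below with the genes read by several, did so only through proximal signals below background. P2rx7, a channel opened by extracellular ATP, gave signals of 30.2 and 927.6 in distal against 2.9 and 23.1 in proximal matrix. The proximal arrays were not above background and distal replicate 1 lay below its control of 58.0. The excess, with a nominal bound of 2.52-fold, therefore came from distal replicate 2 alone. Sema5a, a transmembrane guidance protein, had 380.9 and 2.8 in distal samples and 2.5 and 1.6 in proximal samples, again with signal on 1 distal array, here replicate 1. Axl, a receptor tyrosine kinase that binds Gas6, read 440.5 and 95.9 in distal and 61.7 and 191.4 in proximal matrix, which overlapped, and its difference turned from 0.92 to -0.18 without distal replicate 1.

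**Figure D2:**
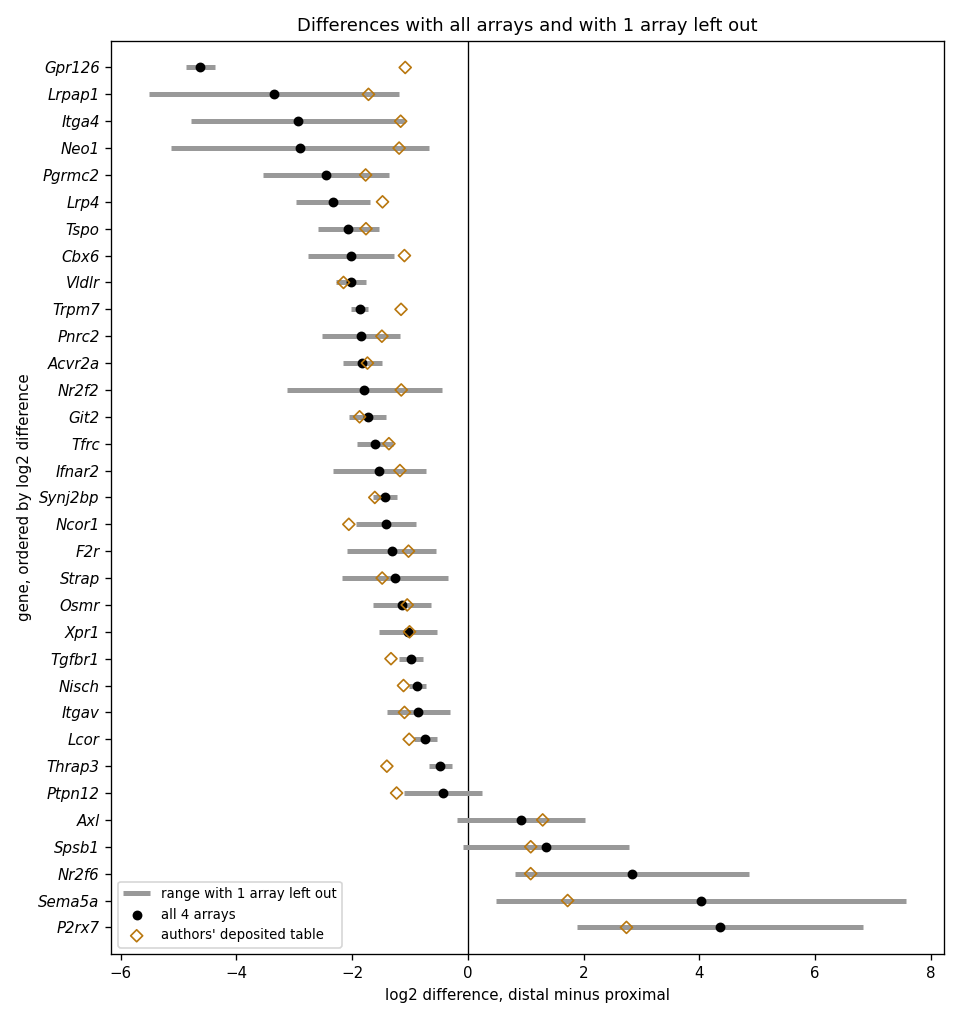
Log2 difference, distal minus proximal, of 33 of the 36 genes with all 4 arrays (black points), the range when 1 array was left out (grey bars) and the authors' deposited value (open diamonds). The bars of Ptpn12, Axl and Spsb1 cross 0, and those of Vldlr (-2.28 to -1.76) and Trpm7 (-2.02 to -1.72) are short.

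With 1 array left out at a time, the difference stayed within 1.5-fold of its size on the log2 scale for 11 of the 31 genes above background in both regions: Lrp4, Tspo, Vldlr, Trpm7, Acvr2a, Git2, Tfrc, Synj2bp, Tgfbr1, Nisch and Lcor. For the other 20 it moved further, and its sign turned for Ptpn12 and Axl, as it did for Spsb1, whose proximal arrays were not above background. Vldlr stayed between -2.28 and -1.76, Trpm7 between -2.02 and -1.72 and Acvr2a between -2.16 and -1.49. Limma called 15 of the 36 genes without distal replicate 1, against 2.00% of all probe sets, and 11 without distal replicate 2, against 1.41%. Nothing is read from these counts, since the list was chosen on the same arrays. In both fits the lone distal array was assumed to vary like the proximal ones.

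The distal arrays differed from each other more than the proximal arrays did. The median gap between the arrays of a region over the 36 genes was 1.17 on the log2 scale in distal and 0.41 in proximal matrix, against 1.04 and 0.58 over the other listed genes and 1.20 and 0.99 over all probe sets. The distal gap was the wider one for 28 of the 36 genes, and for 723 of the 1097 other listed genes. Most members were listed as higher in proximal matrix, so their distal signals were the lower ones. The part of signal level in these gaps was not tested. The distal arrays were over 2-fold apart for 21 genes and the proximal arrays for 6. Neither distal array was low throughout, as distal replicate 1 was the lower for 16 genes and distal replicate 2 for 20.

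**Figure D3:**
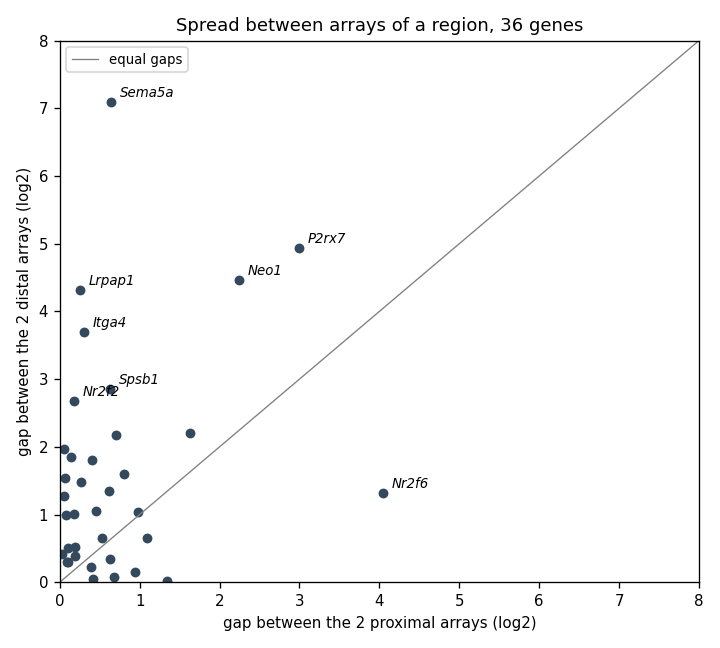
Absolute log2 gap between the 2 proximal arrays (horizontal axis) and between the 2 distal arrays (vertical axis), 1 point per gene, with a line of equal gaps. The points of 28 of the 36 genes lie above the line, with Sema5a highest and Nr2f6 farthest to the right.

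Vldlr, Tspo and Spsb1 had more than 1 listed probe set, and Tfrc is also read by 3 control probe sets of the array. All 3 probe sets of Vldlr had both proximal arrays above both distal arrays, with log2 differences of -2.02, -1.32 and -1.05, and so did both of Tspo, at -2.06 and -1.40. The SEs of the 2 smaller Vldlr differences were 0.66 and 0.70. On the Vldlr probe set at -1.32 the distal arrays had 300.4 and 68.0, a gap of 4.42-fold that exceeded the difference between the regions. Distal replicate 2 lay there below its control of 81.0. For Tfrc the 5' and 3' control probe sets had differences of -1.19 and -0.89, with the arrays separated by region. The control probe set for the middle of the transcript gave signals of 526.3 and 200.0 in distal against 204.1 and 360.6 in proximal matrix, which overlapped (0.26). Of these 3, the 3' and the middle one were not in the authors' list. Spsb1, a gene of a SOCS box protein, was read by a probe set with 51.9 and 376.3 in distal and 68.2 and 44.0 in proximal matrix. Another had 122.2 and 2378.1 against 2.8 and 45.0. The regions overlapped on the first, where the proximal arrays were not above background. Distal replicate 1 lay there below its control of 58.0, so its nominal bound of 2.11-fold came from distal replicate 2 alone. On the second both distal arrays lay above both proximal ones, which were not above background, with at least 8.13-fold more distal signal. The log2 difference of 5.59 exceeded the gap of 4.28 between the distal arrays only through proximal signals below background. The bound of 8.13-fold was smaller than the 19.5-fold between the distal arrays. On both probe sets distal replicate 2 was the high array.

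**Figure D4:**
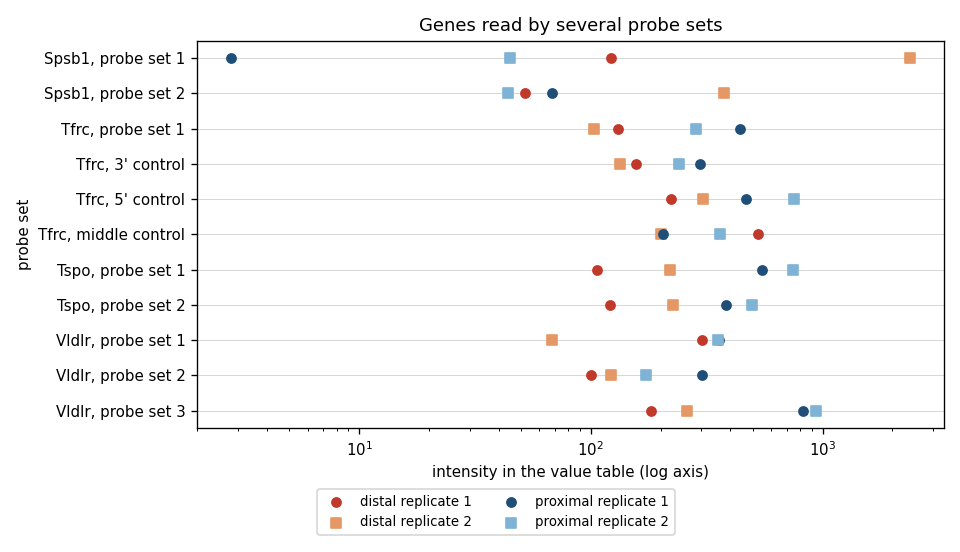
Intensity (log axis) on the 4 arrays of each probe set of the genes read by several, with the 3 control probe sets of Tfrc. The 3 Vldlr and 2 Tspo probe sets separate the regions in the same direction, while the middle control of Tfrc overlaps.

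The authors' deposited table gave the same direction as the value table for each of the 36 genes, 31 of them higher in proximal matrix. The members were listed by the authors' values from the same arrays, so the shared direction was largely given in advance. The size differed, and was larger in the value table for 22 genes. For 8 genes the fold in the value table was under the limit by which the list had been made. Thrap3 was 2.64-fold apart in the authors' deposited table and 1.39-fold in the value table, and Ptpn12 was 2.35-fold and 1.34-fold. Lrpap1 went the other way, at 3.29-fold in the authors' deposited table and 10.2-fold in the value table, where distal replicate 2 lay below its control.

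Genes annotated as ligands, receptor-binding proteins or signal transducers, which the authors had also listed for fold change, went both ways. The annotation terms also took in proteins that are not signals themselves, such as Ddx54 and Gja1. Of 12 listed ligands and receptor-binding proteins, 6 were higher in mean intensity in the proximal and 6 in the distal matrix, and limma called 0 of them (0.0666% of all probe sets), with an unadjusted p under 0.05 for 6 (5.09% of all probe sets). These genes too were listed for a difference on these arrays. Areg, a ligand of the epidermal growth factor receptor, had a log2 difference of -2.04 and Cxcl14, a chemokine, of -1.37, while Ccl20 (2.33) and Cxcl2 (1.44), also chemokines, were on the distal side. Tgfb2, a ligand of Tgfbr1, had 296.3 and 759.9 in distal samples and 483.5 and 959.9 in proximal samples, which overlapped. Of 13 listed signal transducers, 6 were higher in the proximal and 7 in the distal matrix, and limma called 1, in the distal direction (Dvl1, a relay of Wnt signals). Wnt5a, on the distal side, was counted both here and among the ligands. Of 92 receptor genes of skin in a list drawn up by name, 6 were in the authors' list, all of them members, among them Acvr2a, Axl, Osmr and Tgfbr1, with 5 on the proximal side. The others, among them Egfr and Fgfr2, were not analysed here.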

How the data were processed

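RNA from 2 distal and 2 proximal nail matrix samples was measured on arrays. The deposited value table holds linear intensity per probe set. The authors' list, per the file headers, is the output of a fold change step in analysis software for Affymetrix Mouse430_2 arrays, with a limit on the fold. It holds an unsigned fold ratio and the authors' log2 value per region, deposited as 1 value per region. The summary and normalization steps behind either table are not given in the sources used here. Gene names are those of the list, with 36 of 36 members matched to RefSeq by gene identifier.

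The log2 was computed with a floor of 1 on the intensity. Leaving out 64 control probe sets, also from the choice of a gene's probe set, 45037 were fitted with limma 3.58.1 in R 4.3.3 (variance trend, two-sided, Benjamini-Hochberg threshold of 0.05). The fit was tested on simulated data. A difference is distal minus proximal, and its SE is the moderated one of limma. A bound sets the higher region's mean against the highest Bacillus subtilis control, or the gene's own signal where that is higher, on each array of the lower region. It is nominal where an array of the higher region lay below its own control, since that array kept its own signal. Members and lists were chosen with earlier results of these data known. Per-array values by rule went to the 8 members per direction with the largest separated differences, called members, those with discordant probe sets, the 3 smallest authors' folds and the 4 widest replicate gaps, 15 genes in all. The values of other members were added after they were seen, and those of 3 members are not reported here. A planned grouping by annotation keywords put Vldlr and Trpm7 with kinases, so members are ordered by known role instead, also a later choice. Alternatives were other scalings, 16 added before log2, brighter probe sets, a fit with no variance trend, a replicate block, leaving out each array, the mean of a gene's probe sets, the authors' values and, added later, a control probe set for Tfrc. Same-numbered arrays did not deviate together (correlation -0.01 across probe sets).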

Additional observations from a re-analysis of the deposited data

How the results depend on the processing

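The count of members higher in proximal matrix, 31 of 36, was 31 under quantile normalization, median centring, hybridization control scaling, log2 of the intensity plus 16, the replicate block, the mean over probe sets, the authors' values and the control probe set for Tfrc. It was 30 of 34 among brighter probe sets, and 30 to 32 with 1 array left out. The median log2 difference ran from -1.93 under hybridization control scaling, which moved the median of all probe sets by -0.51, to -1.18 with the authors' values, and with 1 array left out from -1.46 to -1.19. No member changed sign under a scaling. Of 466 single-gene values under an alternative, 3 turned, each with 1 array left out. With 1 array left out the values ran from -1.09 to 0.25 for Ptpn12, from -0.18 to 2.02 for Axl and from -0.078 to 2.78 for Spsb1, and the cause was not tested. Many of the 466 could not turn, so their number says little about stability. The replicate block and brighter probe sets leave a gene's difference unchanged, and the Tfrc control changes only Tfrc. The mean over probe sets changes only genes with several listed probe sets, and the authors' values are those by which members were listed.

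Limma called 30 probe sets in all, 9 under quantile normalization, 8 under median centring, 12 under hybridization control scaling, 17 with 16 added, 2 among brighter probe sets, 0 without a variance trend and 90 with the replicate block, and 4 to 899 with 1 array left out. The highest counts came without a distal array (899 without replicate 1 and 635 without replicate 2). Of the members it called 0 in all settings except the replicate block, where it called 1 (Vldlr), and without distal replicate 1 or 2, so that the counts with 1 array left out ran from 0 to 15. The samples share only a number, so this pairing has no basis in the labels. Of the calls, 80.0% were higher in distal matrix in all, 66.7% under quantile normalization and 25.0% under hybridization control scaling. A signal near the bacterial controls limits Gpr126, P2rx7, Sema5a and Spsb1 to bounds, in part nominal, or to no fold. Other members also had at least 1 array below its control: Lrpap1, Itga4, Neo1, Pgrmc2, Lrp4, Cbx6, Pnrc2, Nr2f2, Ncor1, Axl and Nr2f6. The sizes of their differences are uncertain for that reason.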
